A study of Mus musculus with 7 samples.

Results

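Lysosomal enzymes and membrane proteins were examined as 37 named genes in mice given thrombospondin-1 or saline, in RNA of the mPFC (medial prefrontal cortex), a frontal area along the midline. The genes were taken by symbol and comprised 9 proteases, 11 enzymes that degrade sugar chains, 7 enzymes and cofactors of lipid breakdown, 8 membrane proteins, and the regulators Tfeb and Grn. All 37 were found among the 25467 genes of the count table, and all 37 passed the low-count filter that left 17211 genes for testing. RNA was sequenced from 4 mice labelled rhTSP1, read here as recombinant human thrombospondin-1 and called TSP1, and from 3 mice labelled PBS (phosphate-buffered saline), with 1 library per mouse. No genotype or other agent is labelled in either group, and dose, route, time of dissection, strain, sex and age are not stated in the labels. The comparison asks whether lysosomal genes differed after TSP1, a secreted matrix glycoprotein made by astrocytes, and whether they differed in the way that markers of microglia did.

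Lysosomes are acidic organelles in which hydrolases degrade proteins, sugar chains and lipids delivered by endocytosis, phagocytosis and autophagy. Most of these hydrolases are tagged with mannose 6-phosphate and carried to the lysosome by sorting receptors, while heavily glycosylated membrane proteins line its wall and a proton pump, the V-ATPase, keeps its interior acid. Many of the genes can be switched on together by the transcription factor TFEB, and inherited loss of single members causes lysosomal storage diseases, many of which damage the brain. Every cell of the cortex has lysosomes, and microglia, the phagocytes of the brain, hold especially many.

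Promoters are shown because the genes are known for a shared regulatory element. RefSeq promoter windows of 300 bases, mostly upstream of a RefSeq start site and read from GRCm38.p6, were matched for 33 of the 37 genes. The other 4 are Ctsb, Ctsh, Asah1 and Laptm4b. These start sites can differ from the gene bounds given further on, which come from another annotation. Most of the Ctsd window and most of the Grn window lie within those bounds. The E-box core CACGTG was found in 11 of the 33 (33.3%), against 8.09% of the 27025 genes with a window. Its longer form TCACGTGA, the core of the element that TFEB binds, was found in 5 of the 33 (15.2%), against 1.12% of all genes. Both motifs read the same on both strands, and every TCACGTGA contains a CACGTG. The windows of 4 genes are printed from 5′ to 3′ along the gene's own strand, with the motifs in capitals: Ctsd (chr7:142387778-142388077, minus strand), Lamp1 (chr8:13158911-13159210, plus strand), Mcoln1 (chr8:3500269-3500568, plus strand) and Grn (chr11:102430257-102430556, plus strand). They were chosen for their motifs and their values described further on.
Ctsd: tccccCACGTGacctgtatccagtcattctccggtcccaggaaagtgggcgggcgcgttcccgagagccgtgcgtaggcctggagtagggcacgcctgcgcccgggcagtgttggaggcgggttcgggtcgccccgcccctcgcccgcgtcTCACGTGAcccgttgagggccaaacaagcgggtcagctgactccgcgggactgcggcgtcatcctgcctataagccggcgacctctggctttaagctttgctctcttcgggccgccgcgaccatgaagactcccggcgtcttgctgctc
Lamp1: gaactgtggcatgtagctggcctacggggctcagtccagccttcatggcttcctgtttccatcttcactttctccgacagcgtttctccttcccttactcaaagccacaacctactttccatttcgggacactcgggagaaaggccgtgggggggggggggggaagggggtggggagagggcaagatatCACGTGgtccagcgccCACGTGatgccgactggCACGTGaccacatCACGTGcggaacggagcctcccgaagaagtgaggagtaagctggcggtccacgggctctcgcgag
Mcoln1: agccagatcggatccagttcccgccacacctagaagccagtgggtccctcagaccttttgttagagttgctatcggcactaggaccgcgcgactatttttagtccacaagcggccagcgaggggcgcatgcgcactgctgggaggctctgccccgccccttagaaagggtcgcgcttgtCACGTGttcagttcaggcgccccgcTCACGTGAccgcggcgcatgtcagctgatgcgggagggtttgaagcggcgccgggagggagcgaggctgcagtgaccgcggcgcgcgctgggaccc
Grn: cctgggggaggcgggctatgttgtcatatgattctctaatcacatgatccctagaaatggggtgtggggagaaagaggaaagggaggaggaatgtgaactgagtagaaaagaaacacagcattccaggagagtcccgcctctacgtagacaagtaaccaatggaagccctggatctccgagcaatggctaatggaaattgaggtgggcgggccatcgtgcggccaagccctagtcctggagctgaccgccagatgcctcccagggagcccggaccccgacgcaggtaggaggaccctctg
The window of Ctsd held 2 CACGTG cores, 1 of them within TCACGTGA, that of Mcoln1 likewise held 2, and that of Lamp1 held 4. The window of Grn held neither motif, which says only that these letters are not in these bases.

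Libraries held between 15090336 and 20755167 counts, and totals did not differ between TSP1 and PBS beyond the spread of the libraries (exact permutation test, two-sided, p = 0.6; the smallest p these 7 libraries allow is 0.0286). Across all genes tested the median log2 fold change (TSP1 over PBS) was 0.004 and the median standard error (SE) was 0.11. TSP1 replicate 4 stood apart in markers of striatal projection neurons, a cell type of the neighbouring striatum, with a mean of 1.502 log2 units above the 7-library mean, against -0.37 to -0.18 in the other TSP1 libraries and -0.32 to -0.11 in the PBS libraries. The summed level of oligodendrocyte markers also varied widely, from 3160 to 8606 CPM (counts scaled to a common library size) in TSP1 libraries, against 4717 to 5934 CPM in PBS libraries. TSP1 replicate 1 was the shallowest library and PBS replicate 1 the deepest.

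No lysosomal gene passed a false discovery rate (FDR, Benjamini-Hochberg over all genes tested) of 0.05 in edgeR's quasi-likelihood test, and neither did any other gene (0% of 17211). Of the 37 genes, 27 had fitted values below 0, that is lower with TSP1, whereas 48.9% of all genes tested did. An unadjusted p under 0.05 was reached by 9 of the 37 in the lower direction (Ctsh, Ctsd, Npc2, Grn, Gm2a, Hexa, Ctsz, Lamp2 and Ctsc), against 5.44% of all genes tested, and by 0 in the higher direction, against 4.21%. In 8 of the 37 all TSP1 libraries lay below all PBS libraries, against 5.26% of all genes, and in 1, Tpp1, all TSP1 libraries lay above, against 4.83%. The median log2 fold change of the 37 was -0.05. By role, as in the plot of fitted values, 4 of 9 proteases, 2 of 7 lipid genes, 1 of 11 glycosidases and sulfatase, 1 of 8 membrane proteins and 1 of the 2 regulators reached an unadjusted p under 0.05. Without PBS replicate 1, which leaves 2 PBS libraries, 2 of the 9 (Ctsd and Ctsh) were lower at an unadjusted p under 0.05, against 4.87% of all genes tested in that setting. The other 7 were still fitted below 0 there, from -0.21 (Ctsc) to -0.13 (Ctsz).

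**Figure D1:**
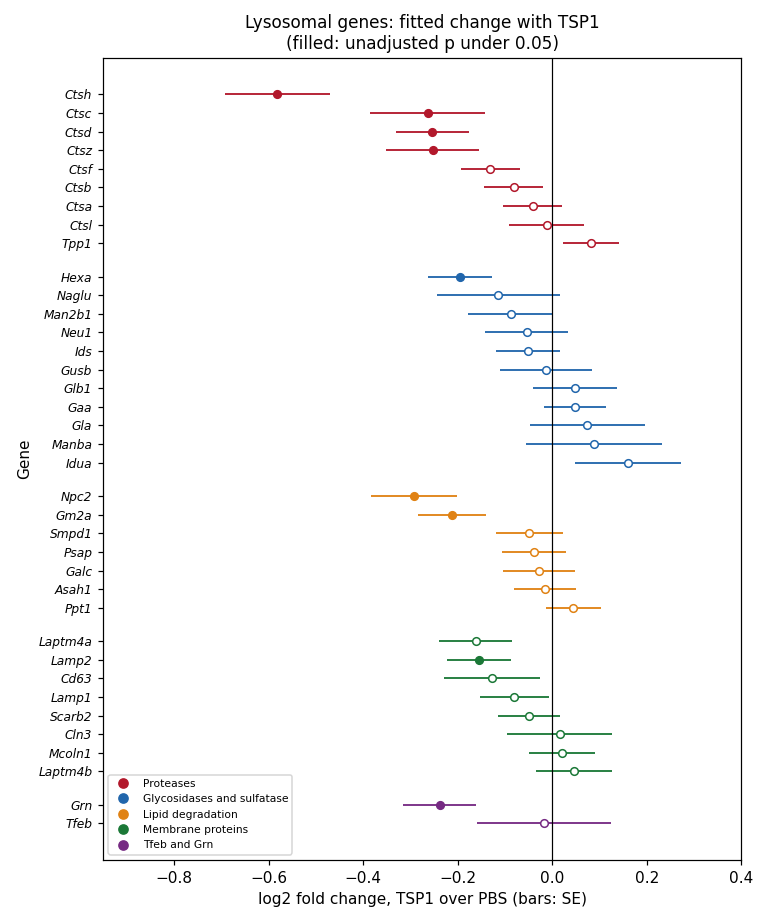
Fitted log2 fold change of each of the 37 genes, TSP1 over PBS, by role, with bars for the standard error; filled points have an unadjusted p under 0.05. Fitted values run from -0.58 (Ctsh) to 0.16 (Idua), and 27 of 37 lie below 0.

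The genes differed far more in level than between groups. Per kilobase of exon, and averaged over the 7 libraries, Psap was highest at 532 CPM per kilobase, followed by Ids (124), Lamp1 (103), Ctsb (76.4), Laptm4a (73.2), Ctsd (67.5) and Gaa (61.3). The lowest were Galc (2.19), Ctsc (1.63), Tfeb (1.48) and Manba (1.40). Length counts every annotated exon base of a gene, whether or not it is transcribed here, so the order depends on annotation. Galc, with 14879 such bases, had 30.4 to 35.1 CPM. Neighbours in this order were often within the spread of the libraries: Ctsb ranged from 70.5 to 80.2 CPM per kilobase and Laptm4a from 60.5 to 80.6. Psap stood clear of the next gene, at 497 to 548 CPM per kilobase against 112 to 130 for Ids.

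Proteases of the lysosome, mainly cathepsins, gave the lowest values relative to PBS, with a median log2 fold change of -0.13. Of these 9, 8 were fitted below 0, against 48.9% of all genes tested. Ctsh (ENSMUSG00000032359, chr9:90054152-90076089), cathepsin H, a cysteine protease that mostly trims proteins from their amino end, had 9.10, 10.2, 10.5 and 9.32 CPM in TSP1 libraries 1 to 4, against 16.2, 13.2 and 14.6 CPM in PBS libraries 1 to 3. All 4 TSP1 libraries lay below all 3 PBS libraries, with means of 9.78 ± 0.67 CPM (SD, n = 4) and 14.6 ± 1.48 CPM (SD, n = 3). Its log2 fold change of -0.58 ± 0.11 (SE) corresponds to a level 33.2% lower, and it had the smallest p of the 37 (unadjusted 0.000116, FDR 0.117). DESeq2 gave it an adjusted p of 0.0075, the only member that any of the methods tried placed under 0.05.

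Ctsd (ENSMUSG00000007891, chr7:142375911-142388038), cathepsin D, the main aspartic protease of the lysosome, had 131, 158, 159 and 139 CPM in TSP1 libraries, against 181, 180 and 164 CPM in PBS libraries. The groups did not overlap, and the fitted value was -0.25 ± 0.08 (FDR 0.313). Of its exon bases, 34.4% are shared with the overlapping gene Gm49369 on the same strand. Gm49369 is not in the count table, and how reads of the overlap were assigned is uncertain. Without Ctsd, 8 of the remaining 36 genes reached an unadjusted p under 0.05 and the median log2 fold change was again -0.05.

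Ctsz (ENSMUSG00000016256, chr2:174427493-174439039), cathepsin Z, which trims proteins from their carboxyl end, had 30.1, 34.8, 34.1 and 36.0 CPM in TSP1 libraries, against 46.7, 39.1 and 34.7 CPM in PBS libraries. The highest TSP1 library exceeded the lowest PBS library, and PBS replicate 1 was well above the others; the log2 fold change of -0.25 ± 0.10 (FDR 0.440) was -0.13 without it. Ctsc (ENSMUSG00000030560, chr7:88278085-88310888), cathepsin C, which activates serine proteases of immune cells by removing dipeptides, had 8.51, 9.74, 8.50 and 8.06 CPM in TSP1 libraries, against 11.2, 9.40 and 10.7 CPM in PBS libraries. These groups overlapped through TSP1 replicate 2 and PBS replicate 2, at a fitted value of -0.26 ± 0.12 (FDR 0.514).

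Ctsf (ENSMUSG00000083282, chr19:4855130-4860918), the cysteine protease cathepsin F, had 53.9, 55.2, 53.8 and 57.3 CPM in TSP1 libraries, against 60.2, 62.7 and 58.0 CPM in PBS libraries. The groups did not overlap, although the difference was small (-0.13 ± 0.06, unadjusted p 0.0541, FDR 0.531). Groups were also separate for Ctsb, the abundant cysteine protease cathepsin B, at 426 to 466 CPM in TSP1 libraries against 471 to 486 CPM in PBS libraries (log2 fold change -0.08). Ctsa, the carboxypeptidase that protects neuraminidase and beta-galactosidase, had a fitted value of -0.04, and Ctsl, cathepsin L, one of -0.01. Ctsl counts are uncertain, since 26.8% of its exon bases overlap Gm47123 on the opposite strand or Gm49230 on the same strand. Gm49230 is a pseudogene identical to Ctsl over 395 bases. Neither overlapping gene is in the count table. Tpp1, tripeptidyl peptidase, was the one protease with a value above 0 (0.08 ± 0.06), at 83.3 to 90.4 CPM in TSP1 libraries against 80.3 to 81.7 CPM in PBS libraries.

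**Figure D2:**
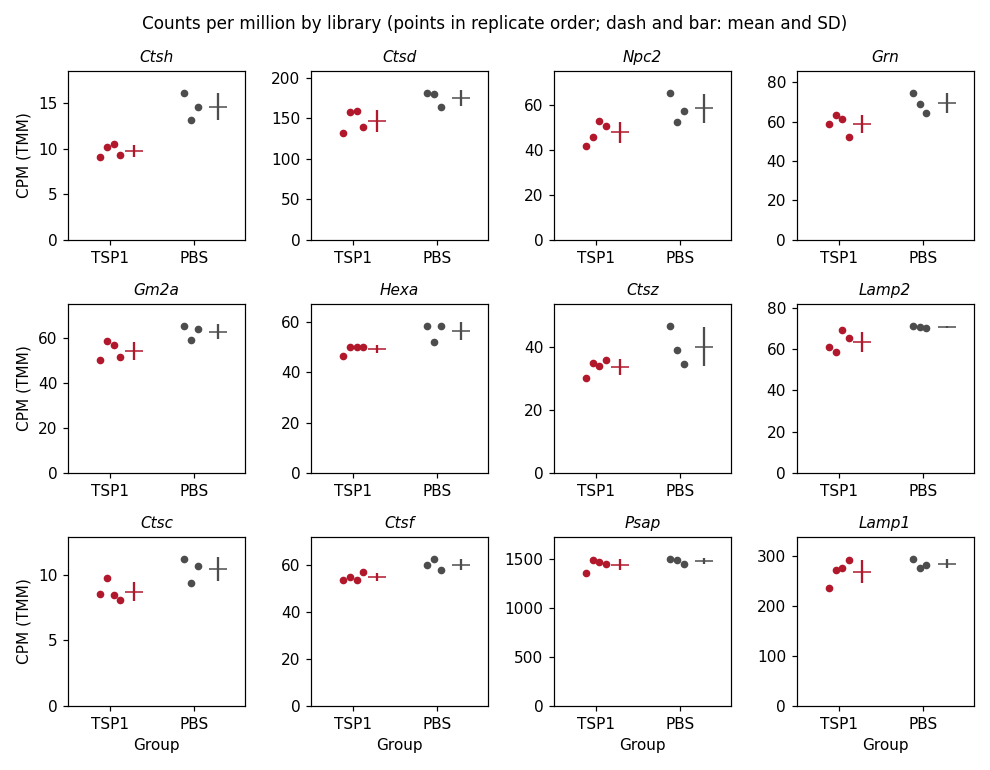
CPM (vertical axes, from 0) in each TSP1 and each PBS library for the 10 genes of smallest p and for Psap and Lamp1; points are libraries in replicate order, and the dash and bar give mean and SD. All TSP1 points lie below all PBS points for Ctsh, Ctsd, Grn, Gm2a, Hexa, Lamp2 and Ctsf, and the groups overlap for Npc2, Ctsz, Ctsc, Psap and Lamp1.

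Enzymes that degrade sugar chains lay on both sides of 0, with a median log2 fold change of -0.01. Below 0 were 6 of 11 and above it 5, against 48.9% of all genes tested below 0. Hexa (ENSMUSG00000025232, chr9:59539540-59565109), the alpha subunit of beta-hexosaminidase, which splits the ganglioside GM2, had 46.6, 50.0, 50.2 and 50.1 CPM in TSP1 libraries, against 58.4, 52.2 and 58.4 CPM in PBS libraries. Each TSP1 library was below each PBS library, and the fitted value was -0.19 ± 0.07 (FDR 0.380). Of its exon bases, 12.8% overlap a gene on the opposite strand. The other 10 had unadjusted p-values above 0.17 and groups that overlapped. Fitted values below 0 were -0.11 for Naglu, which acts on heparan sulfate, -0.09 for the mannosidase Man2b1, -0.05 for the sialidase Neu1, -0.05 for Ids, the iduronate sulfatase, and -0.01 for the glucuronidase Gusb. Those above 0 were 0.16 for the iduronidase Idua, 0.09 for the mannosidase Manba, 0.07 for the galactosidase Gla, and 0.05 each for the beta-galactosidase Glb1 and for Gaa, which degrades glycogen. Single libraries moved several of these by over 1.5 times: with 1 library left out, values ranged from 0.08 to 0.24 for Idua, 0.02 to 0.20 for Manba, 0.03 to 0.12 for Gla, -0.18 to -0.02 for Naglu and -0.16 to -0.02 for Man2b1.

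Of the 7 genes of lipid breakdown, 6 had values below 0, against 48.9% of all genes tested. The 2 of smallest p encode carriers of lipid rather than hydrolases. Npc2 (ENSMUSG00000021242, chr12:84754562-84773152), which binds cholesterol in the lysosome and hands it to the membrane protein NPC1, had 41.8, 45.6, 52.7 and 50.3 CPM in TSP1 libraries, against 65.2, 52.5 and 57.2 CPM in PBS libraries. TSP1 replicate 3 lay just above the lowest PBS library, and the fitted value was -0.29 ± 0.09 (FDR 0.322). Gm2a (ENSMUSG00000000594, chr11:55098115-55113029), the activator that lifts the ganglioside GM2 out of membranes for beta-hexosaminidase, had 50.0, 58.3, 56.7 and 51.4 CPM in TSP1 libraries, against 65.3, 58.8 and 64.0 CPM in PBS libraries. Its groups did not overlap, with a gap of under 1 CPM between the nearest libraries, and the fitted value was -0.21 ± 0.07 (FDR 0.373).

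Psap, the precursor of the saposins that help hydrolases reach sphingolipids, had 1363, 1487, 1473 and 1449 CPM in TSP1 libraries, against 1504, 1495 and 1448 CPM in PBS libraries. The groups overlapped, and its log2 fold change of -0.04 ± 0.07 (FDR 0.903) was -0.01 without TSP1 replicate 1, the lowest library. The remaining enzymes had fitted values of -0.05 (Smpd1, acid sphingomyelinase), -0.03 (Galc, which degrades galactosylceramide of myelin), -0.02 (Asah1, acid ceramidase) and 0.04 (Ppt1, which removes palmitate from proteins), all with groups that overlapped.

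Among the 8 membrane proteins, 5 had values below 0, against 48.9% of all genes tested, and the median log2 fold change was -0.06. Lamp2 (ENSMUSG00000016534, chrX:38401357-38456454), one of the main glycoproteins of the lysosomal membrane, which also takes part in fusion with autophagosomes, had 60.8, 58.6, 69.1 and 65.1 CPM in TSP1 libraries, against 71.2, 70.6 and 70.1 CPM in PBS libraries. The PBS libraries were tightly grouped above all TSP1 libraries (-0.16 ± 0.07, FDR 0.489). Lamp1, its close relative, had 236, 272, 277 and 292 CPM in TSP1 libraries, against 295, 277 and 282 CPM in PBS libraries. Those groups overlapped, and the value of -0.08 ± 0.07 (FDR 0.772) was -0.02 without TSP1 replicate 1, which was the lowest.

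The same library set much of the difference of Laptm4a and Cd63. Laptm4a, a small transmembrane protein of late endosomes and lysosomes, had a log2 fold change of -0.16 ± 0.08 (unadjusted p 0.0553), and Cd63, a tetraspanin of late endosomes, one of -0.13 ± 0.10. Without TSP1 replicate 1 these were -0.10 and -0.04. Scarb2, which carries glucocerebrosidase to the lysosome, was at -0.05, Cln3, mutated in juvenile neuronal ceroid lipofuscinosis, at 0.02, the calcium channel Mcoln1 at 0.02, and Laptm4b at 0.05. Counts of Laptm4b are uncertain, since the pseudogene Gm6705, which is not in the count table, matches it at 96.6% over 685 bases.

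The 2 regulators differed in their values. Grn (ENSMUSG00000034708, chr11:102430315-102437048), which encodes progranulin, the precursor of granulins that is needed for normal lysosomal function in microglia and neurons, had 58.6, 63.1, 61.3 and 52.3 CPM in TSP1 libraries, against 74.5, 69.1 and 64.4 CPM in PBS libraries. All TSP1 libraries were below all PBS libraries, with a fitted value of -0.24 ± 0.08 (FDR 0.340). Tfeb, the transcription factor named above, had 7.59, 9.36, 6.91 and 9.48 CPM in TSP1 libraries, against 8.74, 8.75 and 7.82 CPM in PBS libraries. TSP1 libraries lay on both sides of the PBS libraries, and the fitted value was -0.02 ± 0.14 (FDR 0.982). Of the 8 genes with an unadjusted p under 0.05 and a promoter window, 1 (Ctsd) held CACGTG, as did 10 of the other 25. Among all genes with a window 8.09% did. The difference between these small sets was not tested, and Ctsh, the gene of smallest p, has no window. As shown above, Lamp1 and Mcoln1 held CACGTG and Grn did not.

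Other genes of the pathway were read from 3 further lists. Of 33 other lysosomal genes 32 were tested (all but Acp5), and 19 had values below 0, against 48.9% of all genes tested. At an unadjusted p under 0.05, 5 were lower (among them Ctss, Ctso, Laptm5 and Pla2g15), against 5.44% of all genes tested. At that p 1 was higher (Galns, a sulfatase), against 4.21%, and the median log2 fold change was -0.03. Ctss, cathepsin S, a cysteine protease known in brain chiefly from microglia, had 60.03, 65.9, 68.4 and 51.5 CPM in TSP1 libraries, against 102, 93.2 and 77.1 CPM in PBS libraries, with no overlap (-0.56 ± 0.11, FDR 0.134). Ctso, cathepsin O, had 26.2, 35.4, 38.1 and 36.3 CPM in TSP1 libraries, against 48.4, 39.7 and 42.3 CPM in PBS libraries (-0.35 ± 0.12, FDR 0.365). For both genes every TSP1 library was below every PBS library. Cd68, a phagocyte membrane glycoprotein, had 9.04, 8.34, 9.16 and 7.79 CPM in TSP1 libraries, against 10.7, 9.34 and 9.17 CPM in PBS libraries, separated by less than 0.05 CPM (-0.19 ± 0.12, FDR 0.670). Lgmn, the protease legumain, had 88.3, 99.0, 105 and 97.8 CPM in TSP1 libraries, against 119, 98.0 and 102 CPM in PBS libraries, and these overlapped (-0.12 ± 0.08, FDR 0.670).

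The proton pump and the sorting genes made up the other lists. Of 18 V-ATPase genes 11 had values below 0, against 48.9% of all genes tested, and the median was -0.02. None reached an unadjusted p under 0.05, against 5.44% of all genes tested lower and 4.21% higher. The smallest p was that of Atp6v0b (-0.11 ± 0.06), followed by Atp6v1g1 (-0.12 ± 0.08). Atp6v0b, a subunit of the membrane part of the pump, had 140, 160, 154 and 149 CPM in TSP1 libraries, against 161, 160 and 166 CPM in PBS libraries, with the nearest libraries less than 1 CPM apart. Atp6v1g1, of its cytosolic part, had 42.4, 43.9, 50.7 and 50.4 CPM in TSP1 libraries, against 52.7, 49.0 and 50.7 CPM in PBS libraries, and its groups overlapped. Of 19 genes of sorting, nutrient sensing and regulation 12 had values below 0, against 48.9% of all genes tested, with a median of -0.03. At an unadjusted p under 0.05, 0 were lower and 1 (Igf2r) higher, against 5.44% and 4.21% of all genes tested. All TSP1 libraries lay below all PBS libraries in 2, against 5.26%, and above in 1 (Igf2r), against 4.83%. Both counts of higher genes are near those shares. The cation-independent mannose 6-phosphate receptor Igf2r had 55.2, 49.9, 49.9 and 51.2 CPM in TSP1 libraries, against 44.7, 43.6 and 45.3 CPM in PBS libraries. Every TSP1 library was above every PBS library (0.21 ± 0.07, unadjusted p 0.00643, FDR 0.322). The other mannose 6-phosphate receptor, M6pr, had 68.4, 74.3, 73.8 and 75.5 CPM in TSP1 libraries, against 81.8, 80.0 and 77.4 CPM in PBS libraries. Its groups did not overlap, and it was fitted at -0.13 ± 0.06 (FDR 0.533). The 2 receptors, which both carry tagged hydrolases, thus had values on opposite sides of 0, neither of them past the FDR threshold.

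Markers of microglia had a lower median than any of the lysosomal lists. Of 20 markers, 19 were fitted below 0, against 48.9% of all genes tested. At an unadjusted p under 0.05, 10 were lower (5.44% of all genes tested), and 5 had all TSP1 libraries below all PBS libraries (5.26%). The median log2 fold change was -0.26, against -0.05 for the 37 lysosomal genes. C1qa, a chain of the complement protein C1q, had 36.6, 44.5, 43.5 and 34.1 CPM in TSP1 libraries, against 64.3, 55.4 and 51.4 CPM in PBS libraries. Tyrobp, a signalling adaptor of microglial receptors, had 10.2, 13.1, 13.1 and 9.32 CPM in TSP1 libraries, against 19.4, 14.7 and 15.8 CPM in PBS libraries. Both genes were lower in every TSP1 library than in any PBS library. Their log2 fold changes were -0.52 (FDR 0.128) and -0.54 (FDR 0.241), near those of Ctsh and Ctss. The markers did not share 1 value: the chemokine receptor Cx3cr1 was at -0.02, P2ry13 at -0.09 and the transcription factor Sall1 at 0.14. No marker was at 0 in any library, and their summed level was 527 to 655 CPM in TSP1 libraries, against 661 to 755 CPM in PBS libraries. In bulk tissue, fewer cells of a type and less RNA per cell cannot be told apart.

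By library, the mean of the 37 lysosomal genes relative to the 7-library mean was -0.08, -0.01, 0.001 and -0.04 log2 units in TSP1 libraries 1 to 4, against 0.10, 0.02 and 0.02 in PBS libraries 1 to 3. The microglia markers were at -0.22, 0.0004, 0.05 and -0.30 in TSP1 libraries, against 0.21, 0.20 and 0.07 in PBS libraries. In both lists every TSP1 library lay below every PBS library. The libraries came in the same order, apart from TSP1 replicates 1 and 4, which changed places. For lysosomal genes PBS replicates 2 and 3 were nearly equal, at 0.022 and 0.018. Astrocyte markers had the TSP1 libraries in the order of the lysosomal genes, at -0.26, 0.03, 0.04 and -0.20 in replicates 1 to 4. Their PBS libraries came in another order, at 0.13, 0.07 and 0.18. TSP1 replicate 4 was the lowest of all for microglia markers, and TSP1 replicate 1 was the lowest for lysosomal genes. PBS replicate 1 was the highest library of both lists. As summed CPM the lysosomal genes overlapped, at 4584 to 4914 in TSP1 libraries, against 4906 to 5066 in PBS libraries. List means of astrocyte and endothelial markers were also separate between the groups, as given below. The glycosidases showed no such separation, at 0.02, 0.01, 0.01 and -0.06 in TSP1 libraries, against 0.06, 0.0003 and -0.04 in PBS libraries, while the proteases were at -0.14, -0.03, -0.04 and -0.07 in TSP1 libraries, against 0.18, 0.05 and 0.06 in PBS libraries.

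**Figure D3:**
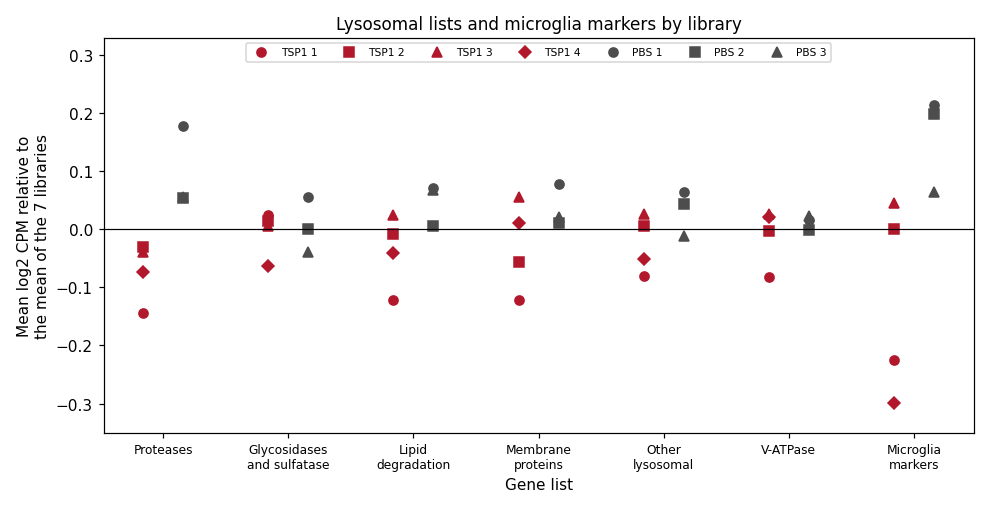
Mean log2 CPM of each gene list relative to the mean of the 7 libraries (vertical axis, log2 units), with TSP1 libraries in red left of PBS libraries in grey and a symbol for each replicate. Every TSP1 library lies below every PBS library for the proteases and the microglia markers, and the microglia markers span -0.30 to 0.21.

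Markers of other cell types gave a range of values. Of 12 astrocyte markers 11 were fitted below 0, against 48.9% of all genes tested. At an unadjusted p under 0.05, 5 of them were lower, against 5.44% of all genes tested. Their median log2 fold change was -0.21, the lowest S100b at -0.42. Their summed level was 5647 to 6953 CPM in TSP1 libraries, against 6555 to 7593 CPM in PBS libraries. By list mean, every TSP1 library lay below every PBS library, at most 0.04 against at least 0.07 log2 units. Of 10 endothelial markers 9 were below 0, against 48.9% of all genes tested, and 3 were lower at that p, against 5.44%. Their median was -0.16, the lowest Ly6c1 at -0.58 and Cldn5 at -0.52. Their summed level was 222 to 278 CPM in TSP1 libraries, against 276 to 319 CPM in PBS libraries. By list mean, every TSP1 library again lay below every PBS library, at most 0.01 against at least 0.04 log2 units. The median was -0.08 for 12 oligodendrocyte markers, none of them at that p. For 12 neuron markers it was 0.04, with 1 of them higher at that p, against 4.21% of all genes tested. The part of these cell type markers in the values of the lysosomal genes, and that of the microglia markers, was not tested. Single libraries, the shallowest and the deepest, also ran with the result. Among the other libraries, TSP1 replicates 2 to 4 held 17873566 to 18726612 counts, against 17311959 and 16748882 in PBS replicates 2 and 3. The part of depth was not tested. TSP1 replicate 1 was the lowest library for 20 of the 37 genes, against 20.7% of all genes tested, and PBS replicate 1 the highest for 17, against 14.3% of all genes tested; 25 of the 37 showed at least 1 of these. With both libraries left out, a choice made after the data were seen, 19 of the 37 had values below 0, against 48.5% of all genes tested, and 2 (Ctsd and Ctsh) were lower at an unadjusted p under 0.05, against 5.13% of all genes tested. Both counts are near those shares. The median log2 fold change in that setting was -0.03 for the 37 genes and -0.21 for the microglia markers. Without TSP1 replicate 4, the library with striatal markers, 10 of the 37 were lower at an unadjusted p under 0.05, against 5.41% of all genes tested, and the medians were -0.06 for the lysosomal genes and -0.19 for the microglia markers.

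**Figure D4:**
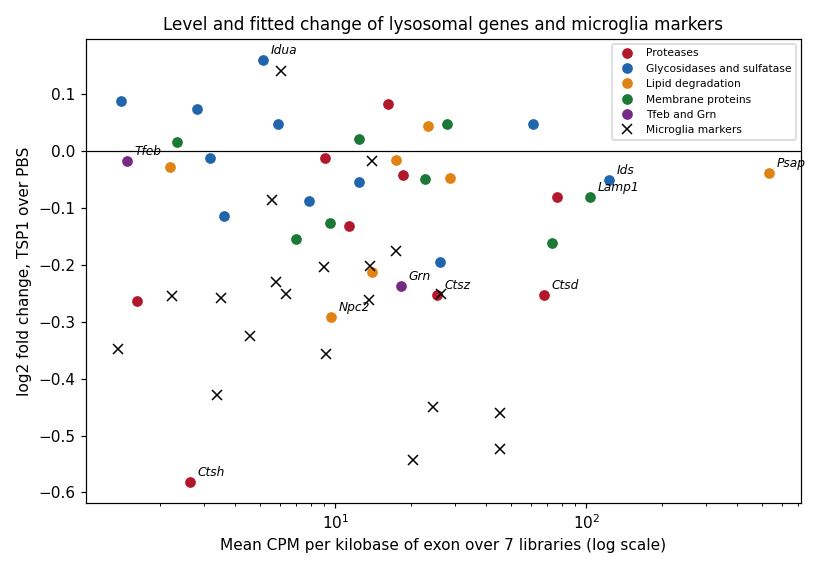
Fitted log2 fold change, TSP1 over PBS (vertical axis), against mean CPM per kilobase of exon over 7 libraries (horizontal axis, log scale), for the 37 lysosomal genes (coloured points, by role) and 20 microglia markers (crosses). The most abundant gene, Psap at 532 CPM per kilobase, is at -0.04, Ctsh at -0.58 lies below every marker, and 19 of 20 crosses lie below 0.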

How the data were processed

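RNA from 7 mice was sequenced, 1.3 µg of total RNA per library entering a SMARTer mRNA preparation per the labels' protocols. The deposited table holds read counts per gene, made by the authors, judged as raw from their whole values and differing totals. Builds GRCm38 and mm10 are named in the submitters' processing notes, with no aligner, counting tool or strand setting given in the sources used here. Symbols, coordinates and lengths came from GENCODE M21 (25375 of 25467 genes matched).

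edgeR 4.0.16 in R 4.3.3 (filterByExpr, TMM, robust quasi-likelihood, group alone, two-sided, FDR under 0.05) was fitted over the whole table and tested on simulated data. P-values measure the spread between mice. CPM are TMM-scaled, and list means use log2 CPM with a prior count of 2. Alternatives were RLE factors, DESeq2 1.42.0, limma-voom 3.58.1, other filters, a replicate block, length and GC offsets, and leaving out libraries. All 37 genes are named; library values are given for the 10 of smallest p and Lamp1, Lamp2, Ctsd, Psap, Grn and Tfeb, and in other lists for Ctss, Cd68, Lgmn and the genes of smallest p; a further gene in that rule is left out here. Genes and lists were chosen with earlier results of these data known. Other genes named were chosen after their values were seen.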

Additional observations from a re-analysis of the deposited data

Results flagged for a closer look

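In 52 groups of 4 TSP1 libraries tested for a library far from the others, 2 were found. Chance alone flags about 1 group in 20, so these 2 are no more than chance gives. The groups are single genes and lists that share genes, and so are not independent. Hexa, the alpha subunit of beta-hexosaminidase, had 46.6 CPM in TSP1 replicate 1, while the other 3 TSP1 libraries lay between 50.0 and 50.2 CPM. Striatal neuron markers averaged 1.502 log2 units above the 7-library mean in TSP1 replicate 4, while the other TSP1 libraries lay between -0.37 and -0.18.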

How the results depend on the processing

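Over the 15 other settings, 22 of the 37 genes kept the sign of their log2 fold change in each, and the other 15 did not in at least 1, none of them past the FDR threshold. DESeq2 placed 1 of the 37 genes (Ctsh) past the FDR threshold, among 89 genes in all, and gave no adjusted p for 2347; every other setting placed 0. The cause was not tested. The count of lower genes at an unadjusted p under 0.05 ranged from 2 to 10 with 1 library left out, was 2 with both libraries of number 1 left out (chosen after seeing the data), 7 with the replicate number as a block and 12 with length and GC offsets. The share of all genes tested was 3.70% to 5.88% with 1 library left out and 5.13% with both libraries of number 1 left out. It was 4.78% with the block and 6.95% with the offsets. The offsets also moved the median of all genes to -0.03 and the share below 0 to 58.0%. The replicate numbers did not pair the libraries (correlations of same-numbered deviations -0.26, -0.03 and 0.01). With the replicate block 24 of the 37 genes were below 0, against 50.1% of all genes tested. The medians were then -0.06 for the 37 genes and -0.20 for the microglia markers.

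With 1 library left out, 27 of the 37 values moved by over 1.5 times and 10 did not. Sign changes were these, with the cause not tested. With both libraries of number 1 left out, log2 fold changes were 0.017 for Ctsa, 0.105 for Ctsl, 0.0020 for Gusb, 0.040 for Naglu, 0.0028 for Asah1, 0.00099 for Psap, 0.0055 for Lamp1, 0.012 for Scarb2, -0.026 for Mcoln1 and 0.054 for Tfeb. With the replicate block they were 0.0056 for Gusb, 0.016 for Neu1 and 0.013 for Asah1. With length and GC offsets they were -0.024 for Cln3, -0.035 for Mcoln1 and 0.023 for Tfeb. With 1 library left out, values ranged from -0.062 to 0.062 for Ctsl, -0.062 to 0.026 for Gusb, -0.112 to 0.020 for Neu1, -0.074 to 0.021 for Galc, -0.051 to 0.015 for Asah1, -0.082 to 0.0016 for Smpd1, -0.062 to 0.116 for Cln3, -0.032 to 0.057 for Mcoln1, -0.0060 to 0.108 for Laptm4b and -0.082 to 0.064 for Tfeb. With 4 and 3 libraries, differences near a gene's own SE are not detectable.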
